A study of Homo sapiens with 6 samples.

Results

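The genes described here are androgen receptor targets other than the kallikreins, measured by RNA-seq in the prostate cancer line C4-2B-ENZR, whose name and study title tie it to resistance to enzalutamide, a drug that competes with androgen for the receptor. They were taken by symbol from a list of 34 known targets, and the rule uses no measured value other than a minimum mean. Of the 34, 32 were listed in the files (PPAP2A under its current symbol PLPP1), and 31 of the 16548 genes tested had a mean value of at least 1 in at least 1 group. PMEPA1 and PART1 were not analysed here, and HPGD, which degrades prostaglandins, stayed below the minimum with 1.8 in siKIF15 1 and 0, to 1 decimal, in the other 5 libraries. The comparison set 3 libraries of cells given a control siRNA (NC) against 3 of cells given an siRNA to KIF15 (siKIF15), all of the same line, kept in medium with fetal bovine serum; the labels name no drug or androgen treatment of these cultures. Nothing in the labels says that replicates were grown separately; each p-value then reflects only how these libraries scatter, which may be technical. The targeted gene KIF15 had NC values of 366.4, 403.6 and 319 and siKIF15 values of 294.8, 333.1 and 363 (log2 change -0.13 ± 0.14, limma adjusted p = 0.57). The label was thus not borne out by its transcript, and a direction given for siKIF15 means the libraries so labelled.

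The androgen receptor is a nuclear receptor that enters the nucleus when it binds androgen, pairs up on DNA at androgen response elements, mostly in enhancers far from gene starts, and raises or lowers transcription there together with pioneer factors such as FOXA1 and HOXB13. In luminal prostate cells its induced targets include secreted and surface proteins, lipid and polyol enzymes, a receptor cochaperone and transcription elongation factors. The levels of such targets are widely used to read receptor activity in prostate cancer, and FOLH1, which encodes the antigen PSMA, is a member that androgen is known to lower. Each value is a deposited signal. The low ones lie in bands, but the best single step per library fitted 32.4% to 93.8% of them. It was thus not established whether values were divided by gene length. The "log2 change" is the mean log2(value + 1) of siKIF15 less that of NC. It was fitted with limma over all genes tested, with Benjamini-Hochberg adjustment and a threshold of 0.05.

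The targets did not move as a block. PTGER4, SLC45A3, C1orf116, STEAP1 and SORD rose in the siKIF15 libraries, and ALDH1A3, MPHOSPH9, HOMER2, STEAP2, ZBTB10, ELL2 and TMPRSS2 fell. The changes ran from a log2 change of -0.88 for ALDH1A3 to 0.88 for PTGER4. These and the barely detected STEAP4 were the 3 members that reached an absolute log2 change of 0.5. Of all genes tested 22% did, a share that includes genes near the floor of the values, whereas 30 of the 31 members had a group mean of at least 100. The median over the 31 members was -0.077, beside -0.004 over all genes tested.

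In all, 12 of 31 members passed the threshold (38.7%), where 18% of all genes tested did, and 12 of the 30 members with a group mean of at least 100 passed, where 23% of all such genes did. The 5 rises stand beside 9.66% of all genes and the 7 falls beside 8.33%. Of genes with a group mean of at least 100, 11.6% rose and 11.3% fell. The groups did not overlap for 19 members (61.3%), against 34.8% of all genes. That share includes genes near the floor of the values and was not taken for genes with a group mean of at least 100. The median absolute log2 change of the members was 0.21, the same to 2 decimals as over all genes and beside 0.16 over genes with a group mean of at least 100. The split into rises and falls depended in part on the scaling of the libraries. It was 3 and 10 with equal totals, 4 and 9 with quantile normalization and 5 and 8 with median of ratios. Limma without a variance trend left 1 rise (PTGER4) and 1 fall (ALDH1A3). The split also moved with single libraries, from 4 and 4 without NC 1, 3 and 1 without NC 2, 3 and 2 without NC 3, 3 and 1 without siKIF15 1 and 3 and 4 without siKIF15 2 to 5 and 9 without siKIF15 3.

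**Figure D1:**
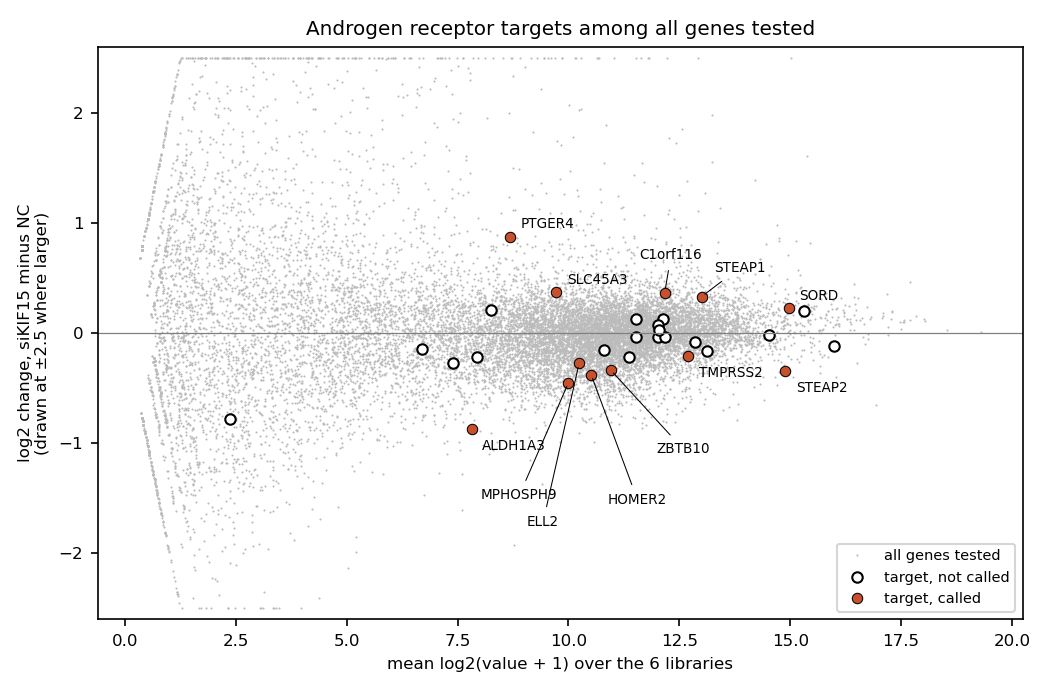
Log2 change (siKIF15 minus NC, vertical axis) against the mean log2(value + 1) over the 6 libraries (horizontal axis) for the 16548 genes tested (grey dots, drawn at ±2.5 where larger), with the 31 androgen receptor targets as circles, filled where the limma adjusted p is under 0.05. The called targets lie on both sides of 0, with PTGER4 and ALDH1A3 the farthest from it.

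**Figure D2:**
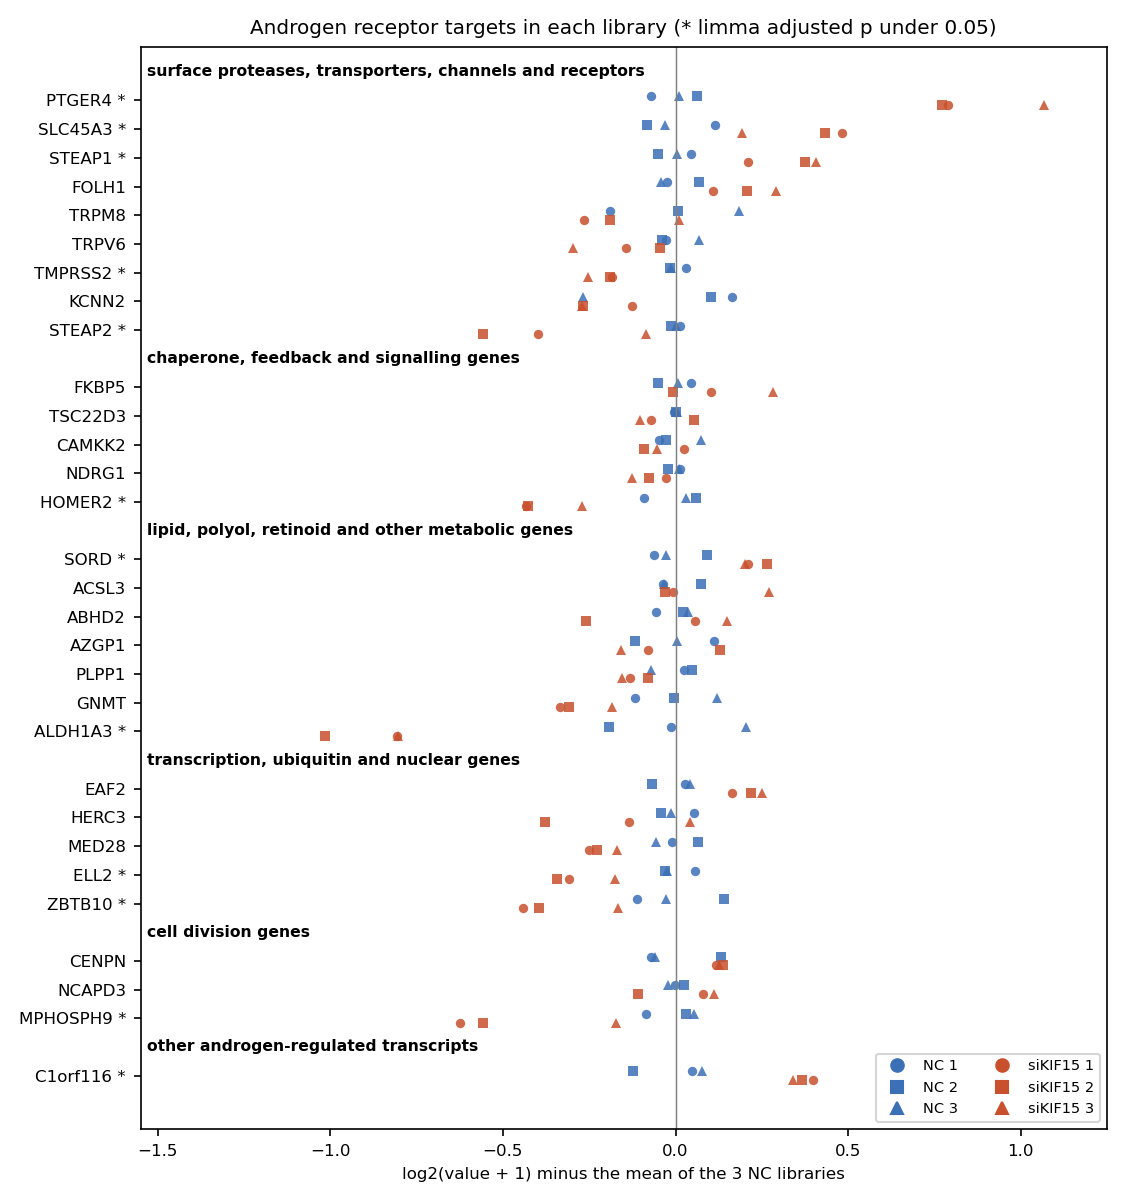
Each target's log2(value + 1) in each library minus the mean of the 3 NC libraries (horizontal axis), by role, with NC in blue, siKIF15 in orange and the replicate number as circle, square or triangle; stars mark an adjusted p under 0.05, and STEAP4, which lies near the floor of the values, is left out. The siKIF15 points lie to the right for PTGER4 and to the left for ALDH1A3, and siKIF15 3 lies apart from siKIF15 1 and 2 for STEAP2 and MPHOSPH9.

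The largest rise was that of PTGER4, which encodes the prostaglandin E2 receptor EP4. Its 3 NC libraries held 286.6, 314.8 and 303.2 and its siKIF15 libraries 521.4, 515 and 632.2, so that every siKIF15 library lay above every NC library. The mean rose 1.84-fold, from 301.6 ± 14.2 (SD, n = 3) to 556.2 ± 65.9, a log2 change of 0.88 ± 0.13 (SE; limma adjusted p = 2e-04). The largest fall was that of ALDH1A3, an aldehyde dehydrogenase that makes retinoic acid. It had NC values of 302.2, 266.9 and 351.9 and siKIF15 values of 173.8, 150.5 and 174.3, again without overlap. Its mean was 1.85-fold lower in siKIF15, 166.2 ± 13.6 against 307 ± 42.7, a log2 change of -0.88 ± 0.16 (adjusted p = 0.0013). Both calls were kept in each of the 17 alternative analyses listed in the processing summary.

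Promoter sequence is shown for the members with the largest rise and fall, as the 250 bases before the RefSeq start of each gene (GRCh38.p14, plus strand), so that their base composition can be read beside the values.

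PTGER4, chr5:40679665-40679914: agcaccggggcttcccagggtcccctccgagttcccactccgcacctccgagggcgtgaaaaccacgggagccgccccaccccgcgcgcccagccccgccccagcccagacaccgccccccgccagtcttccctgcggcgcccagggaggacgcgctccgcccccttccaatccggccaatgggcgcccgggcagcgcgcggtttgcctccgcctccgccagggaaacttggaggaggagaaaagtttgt

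ALDH1A3, chr15:100879581-100879830: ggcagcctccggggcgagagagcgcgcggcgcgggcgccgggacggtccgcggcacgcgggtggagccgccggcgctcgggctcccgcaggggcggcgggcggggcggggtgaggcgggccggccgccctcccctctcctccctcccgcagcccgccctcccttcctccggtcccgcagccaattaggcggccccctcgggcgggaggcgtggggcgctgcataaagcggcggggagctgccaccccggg

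Both stretches are rich in G and C: 72.8% with 26 CpG steps for PTGER4 and 82.4% with 38 for ALDH1A3, beside medians of 58% and 11 over all 35116 promoter windows of the table. Windows of 300 bases, which add 50 bases after the start, were searched on both strands for the androgen response element (AGAACA, 3 further bases of any kind, then TGTTCT), for AGAACA alone, for the forkhead motif TGTTTAC and for the interferon-stimulated response element core (GAAA, any 2 bases, GAAA). Every full androgen response element holds AGAACA, so those searches overlap. Of the tested members, 23 had at least 1 window, 36 windows in all. The full element was in none of the 36 and in 1 window of the whole table (0.00285%). AGAACA was in 1 window each of FKBP5, TRPM8 and TRPV6, 3 of 36, against 14.8% of all windows, the forkhead motif in 1 each of STEAP2 and TSC22D3 against 3.42%, and the interferon-stimulated core in none against 3.57%. A match of letters is a description and does not show binding, and enhancers were not searched.

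Among the surface proteins, the neighbouring STEAP genes on chromosome 7 moved in opposite directions. STEAP proteins are multi-pass membrane proteins: STEAP2 and STEAP4 reduce iron and copper, while STEAP1 lacks the part that binds NADPH. STEAP1 rose from NC values of 7546.2, 7069.9 and 7344.3 to siKIF15 values of 8466, 9498.7 and 9703.8, a log2 change of 0.33 ± 0.07 (SE; adjusted p = 0.0045). The 2 groups of STEAP1 values did not overlap, and its call ended in 1 of 17 alternatives, limma without a variance trend (adjusted p = 0.078). STEAP2 fell from NC values of 34624.7, 34043 and 34353.4 to siKIF15 values of 26062.2, 23330.6 and 32386.8, a log2 change of -0.35 ± 0.1 (adjusted p = 0.021). The NC values of STEAP2 lay close together, and siKIF15 3 lay much nearer to them than siKIF15 1 and 2 did. Its call did not hold when NC 1, NC 2, NC 3, siKIF15 1 or siKIF15 2 was left out (adjusted p = 0.084, 0.11, 0.078, 0.16 and 0.064). The log2 ratio of STEAP1 to STEAP2 within a library was -2.2, -2.27 and -2.23 for the NC libraries and -1.62, -1.3 and -1.74 for the siKIF15 libraries. The siKIF15 mean of this ratio was 0.68 higher, given without a test, since the opposite changes of the 2 genes already fix its direction. STEAP4 was barely detected, at 4.1, 4.1 and 10.5 in NC and 8.3, 5.2 and 0 in siKIF15, and its log2 change of -0.78 had an SE of 0.77.

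The upstream stretches of the 2 oppositely moving neighbours are shown for comparison, with both RefSeq starts of STEAP2. Capitals mark the forkhead motif.

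STEAP1, chr7:90154219-90154468: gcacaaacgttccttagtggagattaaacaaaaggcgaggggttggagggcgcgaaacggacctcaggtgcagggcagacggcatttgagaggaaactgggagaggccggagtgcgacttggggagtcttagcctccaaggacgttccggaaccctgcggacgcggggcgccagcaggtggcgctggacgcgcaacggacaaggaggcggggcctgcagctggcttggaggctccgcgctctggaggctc

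STEAP2 first start, chr7:90211490-90211739: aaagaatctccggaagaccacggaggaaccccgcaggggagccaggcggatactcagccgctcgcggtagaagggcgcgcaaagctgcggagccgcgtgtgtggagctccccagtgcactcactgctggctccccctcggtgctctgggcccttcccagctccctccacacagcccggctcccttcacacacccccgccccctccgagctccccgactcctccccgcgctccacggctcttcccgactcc

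STEAP2 second start, chr7:90213570-90213819: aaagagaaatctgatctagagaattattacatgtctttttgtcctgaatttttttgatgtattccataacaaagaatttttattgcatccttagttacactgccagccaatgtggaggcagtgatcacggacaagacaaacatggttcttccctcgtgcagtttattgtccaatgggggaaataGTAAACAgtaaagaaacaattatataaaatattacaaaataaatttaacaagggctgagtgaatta

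The stretch before STEAP1 holds 64.4% G and C with 21 CpG steps, that before the first STEAP2 start 69.6% with 21, and that before the second 32.8% with 2. The values of this study are per gene, so the starts of STEAP2 cannot be told apart in them.

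Among the other surface genes TMPRSS2, a serine protease gene and a classical androgen-induced transcript, had NC values of 7291.6, 7066.9 and 7078.9 and siKIF15 values of 6286.6, 6260.4 and 5998.2. The groups did not overlap, and the fall was small: a log2 change of -0.21 ± 0.06 (adjusted p = 0.034). That call did not hold when NC 1, NC 2, NC 3 or siKIF15 1 was left out (adjusted p = 0.16, 0.1, 0.12 and 0.095). SLC45A3, the gene for prostein, rose from NC values of 810.2, 705.9 and 732.4 to siKIF15 values of 1045.7, 1010.8 and 855.5, a log2 change of 0.37 ± 0.11 (adjusted p = 0.025). The siKIF15 3 value of SLC45A3 lay closest to the NC range, and the call did not hold when NC 2, NC 3, siKIF15 1 or siKIF15 2 was left out (adjusted p = 0.13, 0.1, 0.15 and 0.066) and with equal totals (adjusted p = 0.055).

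FOLH1, the member that androgen lowers, had NC values of 37382.9, 39867.9 and 36999.7 and siKIF15 values of 41028.1, 43974.6 and 46576.6. All siKIF15 libraries lay above the NC libraries, yet the log2 change of 0.2 (95% interval 0.05 to 0.36) missed the threshold at an adjusted p of 0.071. Its near copy FOLH1B was listed at 55.4 to 137.7 in NC and 72.4 to 157.1 in siKIF15. The calcium channel gene TRPV6 had NC values of 9246.1, 9161.7 and 9867.6 and siKIF15 values of 8533.6, 9128.9 and 7673.7, a log2 change of -0.16 (interval -0.32 to 0; adjusted p = 0.16). The cold receptor channel TRPM8 (-0.15, adjusted p = 0.67) and the potassium channel KCNN2 (-0.22, adjusted p = 0.37) overlapped between the groups. Of the 10 surface genes 3 rose, 2 fell and 5 did not pass, and their summed value was 97032.9 to 98627 in NC and 92283.9 to 104154.7 in siKIF15.

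Of the chaperone, feedback and signalling genes 1 of 5 passed. HOMER2, a scaffold of metabotropic glutamate receptor signalling, fell from NC values of 1557.2, 1728.6 and 1693.3 to siKIF15 values of 1227.5, 1233.4 and 1375.1, without overlap (log2 change -0.38 ± 0.09, adjusted p = 0.0068). Its call did not hold when NC 2 or siKIF15 1 was left out (adjusted p = 0.058 and 0.064). FKBP5, the HSP90 cochaperone of steroid receptors and a target of both androgen and glucocorticoid receptors, had NC values of 2903, 2714.2 and 2827.4 and siKIF15 values of 3023.7, 2798.9 and 3424.9. The FKBP5 groups overlapped, and the log2 change was 0.13 (interval -0.05 to 0.3, adjusted p = 0.33). TSC22D3, a glucocorticoid-induced leucine zipper gene, averaged 3004.3 ± 11.8 in NC and 2925.4 ± 170.5 in siKIF15 (log2 change -0.04, interval -0.19 to 0.11, adjusted p = 0.75). CAMKK2, a calcium-dependent kinase upstream of AMPK, also gave -0.04 (interval -0.19 to 0.11). NDRG1, a stress-regulated differentiation gene and the highest of these 5 per kilobase, had NC values of 7677.5, 7507.9 and 7665.5 and siKIF15 values of 7465.3, 7227.5 and 6973.1, which lay lower without overlap but did not pass (log2 change -0.08, adjusted p = 0.46).

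Among the metabolic genes ALDH1A3 fell, SORD rose and 5 of 7 did not pass. SORD, sorbitol dehydrogenase of the polyol pathway, had NC values of 28412.2, 31581.9 and 29114.5 and siKIF15 values of 34339.2, 35620.3 and 34140, without overlap (log2 change 0.23 ± 0.07, adjusted p = 0.036). The SORD call did not hold when NC 1, NC 2, NC 3, siKIF15 1 or siKIF15 2 was left out (adjusted p = 0.19, 0.054, 0.16, 0.12 and 0.06) and with equal totals or quantile normalization (adjusted p = 0.072 and 0.32). A near-identical SORD pseudogene exists, and the way the counting treated reads that fit both is not given in the sources used here. PLPP1, a phospholipid phosphatase gene, had the highest level per kilobase of all members, with values of 68563.6, 69652.7 and 64200.2 in the NC libraries and 61540, 63852.5 and 60595 in the siKIF15 libraries. The PLPP1 groups did not overlap, and its log2 change of -0.12 (interval -0.28 to 0.03) did not pass (adjusted p = 0.29).

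The acyl-CoA synthetase gene ACSL3 gave 0.08 (interval -0.1 to 0.26), the lipid hydrolase gene ABHD2 -0.02 (interval -0.21 to 0.18) and AZGP1, which encodes a secreted zinc-binding glycoprotein, -0.04 (interval -0.22 to 0.14). These 3 overlapped between the groups. GNMT, glycine N-methyltransferase, averaged 184.3 ± 15.3 in NC and 152 ± 8.7 in siKIF15, lower in every siKIF15 library but not past the threshold (log2 change -0.27, adjusted p = 0.29).

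Of the 5 nuclear genes 2 fell and none rose, with summed values, as deposited, of 8397.7 to 8846.3 in NC and 6958.6 to 7977.2 in siKIF15. With each library corrected for GC content and transcript length, none of these 5 genes passed. The corrected log2 changes were -0.05 for ELL2, -0.14 for ZBTB10, -0.02 for HERC3, 0.08 for MED28 and 0.22 for EAF2. ELL2, a subunit of the super elongation complex that helps RNA polymerase II through genes, had NC values of 1382.1, 1298.9 and 1304.7 and siKIF15 values of 1071.9, 1045.4 and 1177 (log2 change -0.28 ± 0.09, adjusted p = 0.04). Its groups did not overlap. ZBTB10, a zinc finger transcription factor gene, had NC values of 2054.1, 2449.2 and 2176.4 and siKIF15 values of 1634.5, 1688.7 and 1976.5, also without overlap (log2 change -0.33 ± 0.09, adjusted p = 0.021). The ELL2 call did not hold when NC 1, NC 2, NC 3, siKIF15 1 or siKIF15 2 was left out (adjusted p = 0.17, 0.11, 0.12, 0.14 and 0.097), and the ZBTB10 call did not hold when NC 2, NC 3, siKIF15 1 or siKIF15 2 was left out (adjusted p = 0.15, 0.069, 0.15 and 0.052).

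EAF2, which encodes an ELL-binding partner, had NC values of 289.6, 271 and 292.8 and siKIF15 values of 318.4, 331 and 338.4. Its groups did not overlap, but its log2 change of 0.21 (interval -0.07 to 0.49) did not pass (adjusted p = 0.3). A movement opposite to that of ELL2 was thus not established. MED28, a Mediator subunit gene, had NC values of 2835.2, 2987.2 and 2745.8 and siKIF15 values of 2397.2, 2437.4 and 2536.8, lower without overlap and just short of the threshold (log2 change -0.22 ± 0.07, adjusted p = 0.051). MED28 shares 3520 exon bases with FAM184B on the opposite strand in GENCODE v29, and without a stated strand their reads cannot be told apart. The same uncertainty holds for ALDH1A3 (1585 exon bases shared with an opposite-strand gene), STEAP4 (748), ABHD2 (678), ZBTB10 (594), PLPP1 (481, with MTREX), CENPN (457, with CMC2) and SORD (426). Overlaps of 11 to 119 bases touched TRPM8, NCAPD3, KCNN2, TSC22D3, TRPV6, MPHOSPH9, ELL2 and GNMT, and HERC3 shares 321 with a gene on its own strand. HERC3, a HECT ubiquitin ligase gene, gave -0.16 (adjusted p = 0.31), and -0.26 without siKIF15 3, where it passed (adjusted p = 0.028).

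Of the 3 cell division genes MPHOSPH9 fell. This centriole protein gene had NC values of 1126, 1221.3 and 1240.4 and siKIF15 values of 775.2, 810.6 and 1059.2, without overlap, and siKIF15 3 lay nearest to NC (log2 change -0.45 ± 0.11, adjusted p = 0.012). The call did not hold when NC 2, NC 3 or siKIF15 1 was left out (adjusted p = 0.089, 0.066 and 0.12). CENPN, which helps to anchor the centromere to its histone CENP-A, had NC values of 4038.1, 4647.7 and 4075.2 and siKIF15 values of 4600.5, 4670 and 4632.2, overlapping through NC 2 (log2 change 0.13, interval -0.03 to 0.28). NCAPD3, a condensin II subunit gene, gave 0.03 (interval -0.13 to 0.19), and -0.034, -0.002 and -0.007 with equal totals, quantile normalization or the GC and length correction.

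C1orf116, also called specifically androgen-regulated gene, was among the steadier rises. It had NC values of 4196, 3734 and 4283 and siKIF15 values of 5351.5, 5242.3 and 5146, without overlap (1.29-fold; log2 change 0.37 ± 0.07, adjusted p = 0.0024). Its call ended in 1 of 17 alternatives, limma without a variance trend (adjusted p = 0.058).

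**Figure D3:**
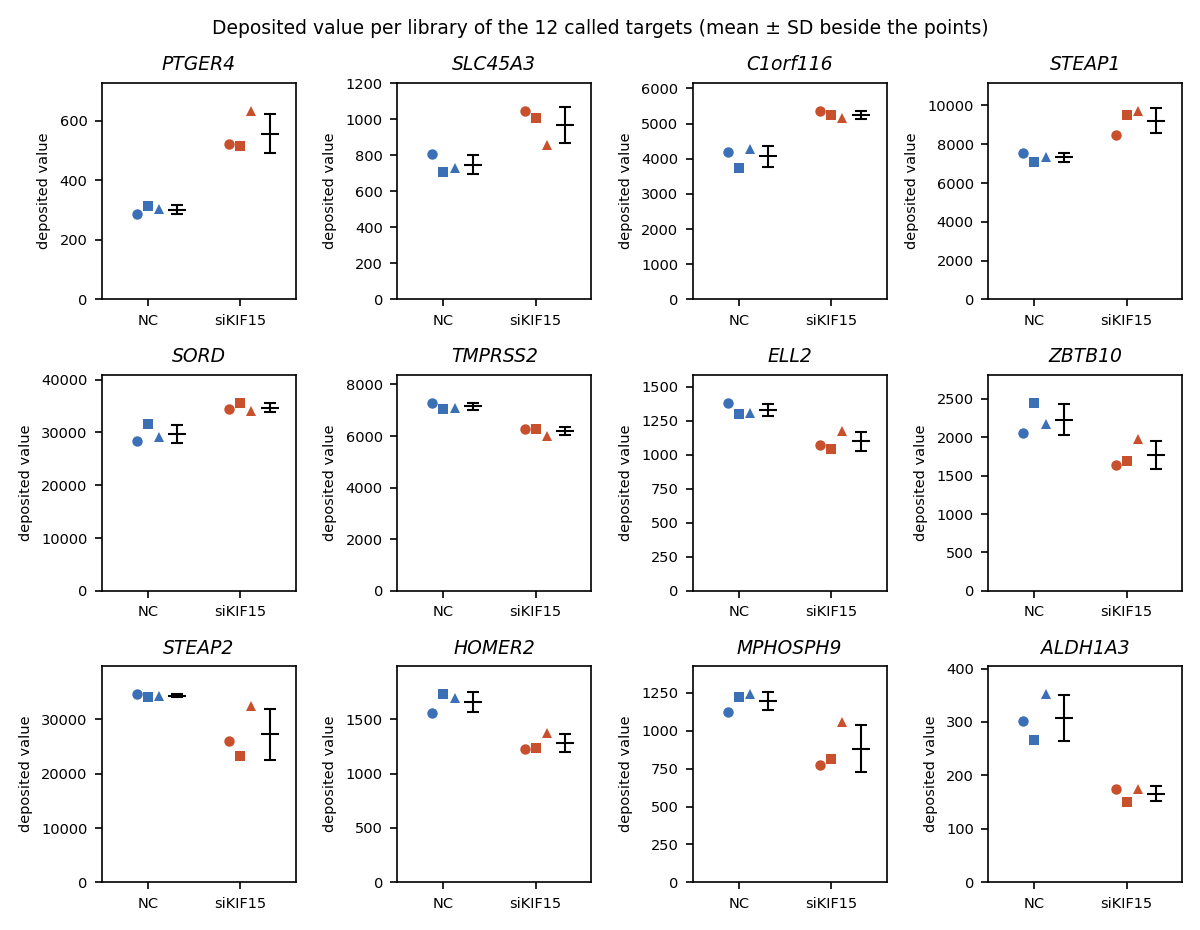
Deposited value per library (vertical axes, from 0) of the 12 targets with an adjusted p under 0.05, in order of log2 change, with circles, squares and triangles for replicates 1, 2 and 3 and the mean ± SD (n = 3) beside them. In each of the 12 panels the NC and siKIF15 points do not overlap, and siKIF15 3 is the nearest to NC for STEAP2, MPHOSPH9, ZBTB10, ELL2 and HOMER2, among others.

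To set levels of different genes side by side, they were taken per kilobase, as the NC mean divided by the median length of a gene's basic GENCODE v29 transcripts. That takes the deposited values as not already divided by length, which was not established. On that scale PLPP1 stood highest at 42900 per kilobase, followed by FOLH1 at 15100, STEAP2 at 14000, SORD at 9420 and STEAP1 at 5580. PTGER4 and ALDH1A3, which changed most, were low at 78.4 and 98.9 per kilobase, above TRPM8 at 35.3 and STEAP4 at 2.7. The summed deposited value of the listed members was 265652.5 to 274775.2 in NC and 262592.4 to 276605.6 in siKIF15, ranges that overlap.

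Of 4 androgen-regulated kallikreins KLK2 rose 1.51-fold (log2 change 0.6, adjusted p = 5.4e-05), and KLK3, the gene for prostate-specific antigen, gave 0.09 (adjusted p = 0.49).

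Of 7 genes known to be lowered by androgen, 1 rose and 1 fell, where 18% of all genes tested passed in either direction. Their median log2 change was 0.21, beside -0.004 over all genes tested. All of the 7 but CAMK2N1 were low, with NC means of 56.4 or less. UGT2B17, which inactivates androgens by glucuronidation, had NC values of 34.9, 37.2 and 39.8 and siKIF15 values of 69, 66.8 and 64 (adjusted p = 0.033). Its close paralog UGT2B15 stood at 20.7, 8.6 and 22.9 and at 40.6, 30.3 and 27.9 (adjusted p = 0.1), and reads shared between the paralogs make both uncertain. MET, the hepatocyte growth factor receptor gene, had NC values of 46.5, 71.6 and 51.1 and siKIF15 values of 25.9, 29.2 and 28.9 (log2 change -0.96, adjusted p = 0.029). The UGT2B17 call did not hold when NC 1, NC 2, NC 3, siKIF15 1 or siKIF15 2 was left out (adjusted p = 0.094, 0.083, 0.068, 0.11 and 0.083), and the MET call did not hold when NC 2, NC 3, siKIF15 1 or siKIF15 2 was left out (adjusted p = 0.14, 0.068, 0.11 and 0.055).

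Other receptors that use the same DNA element were at low or moderate values. PGR, the progesterone receptor gene, fell from NC values of 290.1, 338.3 and 280.3 to siKIF15 values of 134.5, 110.8 and 127.9 (2.43-fold lower, adjusted p = 5.6e-05). NR3C1, the glucocorticoid receptor gene, had NC values of 4.9, 6.6 and 13.4 and siKIF15 values of 25.2, 20.9 and 19.6 (log2 change 1.4, adjusted p = 0.037), near the floor of the values, and that call did not hold when NC 1, NC 2, siKIF15 1 or siKIF15 2 was left out (adjusted p = 0.13, 0.13, 0.16 and 0.084). FKBP5 and TSC22D3, which the glucocorticoid receptor also induces, did not pass with the values as deposited. FKBP5 passed after the GC and length correction (0.22, adjusted p = 0.0049). Any part of NR3C1 in their values was not tested.

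Of 10 partners of ELL2 and EAF2 in elongation complexes, ELL3 and CDK9 rose, EAF1 and AFF4 fell and 6 did not pass. Of all genes with a group mean of at least 100, 23% passed. ELL3 had NC values of 3444.8, 2892.1 and 3276.6 and siKIF15 values of 4636, 5123.1 and 4932.4 (log2 change 0.61, adjusted p = 5.9e-05), and CDK9, the kinase of the elongation factor P-TEFb, rose by 0.31 (adjusted p = 0.0057; 0.055 without siKIF15 1). EAF1 fell by 0.29 (adjusted p = 0.01) and AFF4, the scaffold of the super elongation complex, fell by 0.43 (adjusted p = 0.026). The EAF1 call did not hold when NC 2, NC 3 or siKIF15 1 was left out (adjusted p = 0.066, 0.063 and 0.069), and the AFF4 call did not hold when NC 1, NC 2, NC 3, siKIF15 1 or siKIF15 2 was left out (adjusted p = 0.061, 0.15, 0.095, 0.15 and 0.064). Of 10 partners of NCAPD3 and CENPN in condensin II and the centromere, NCAPH2 rose by 0.27 (adjusted p = 0.031) and none fell. The NCAPH2 call did not hold when NC 1, NC 2, NC 3, siKIF15 1 or siKIF15 2 was left out (adjusted p = 0.082, 0.12, 0.14, 0.14 and 0.1).

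Base composition and transcript length moved with some of these values. Over 11288 genes, which are not independent, the difference between each of siKIF15 1, 2 and 3 and the NC mean had Spearman correlations of 0.5, 0.46 and -0.1 with GC content and -0.29, -0.49 and -0.1 with transcript length. Over the 31 members the correlations were 0.03, 0.18 and -0.17 with GC content and -0.15, -0.26 and 0.08 with length. When each library was corrected for both, 10 of the 12 called members were called in the same direction, and 26.7% of all genes were called. PTGER4 (0.87), ALDH1A3 (-0.91), C1orf116 (0.37), STEAP1 (0.34), HOMER2 (-0.46) and TMPRSS2 (-0.25) moved by less than 0.1, MPHOSPH9 went to -0.21, and the calls of ELL2 (-0.05, adjusted p = 0.65) and ZBTB10 (-0.14, adjusted p = 0.14) ended. MED28, whose median transcript of 10868 bases is the longest of the members, went from -0.22 to 0.08.

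After the correction 9 members were higher and 8 lower. The additional calls were FOLH1 (0.24), ACSL3 (0.24), FKBP5 (0.22) and CENPN (0.15) among the rises, and TRPV6 (-0.26), PLPP1 (-0.19) and NDRG1 (-0.19) among the falls, with adjusted p-values of 0.00025, 0.00082, 0.0049, 0.044, 0.00036, 0.0019 and 0.0049. With the values as deposited these 7 had not passed.

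**Figure D4:**
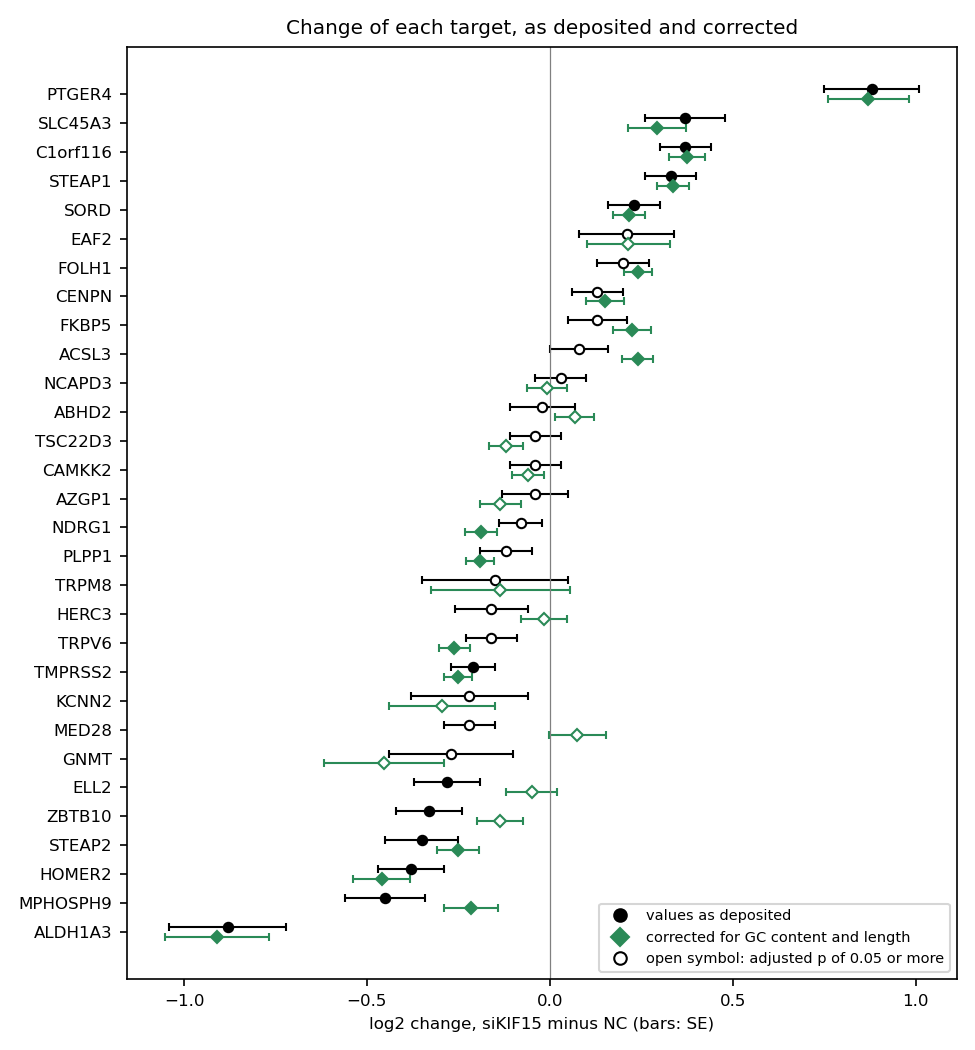
Log2 change with its SE (horizontal axis, siKIF15 minus NC) of 30 targets, from the values as deposited (black circles) and with each library corrected for GC content and length (green diamonds), filled where the adjusted p is under 0.05; STEAP4 is left out because its SE is 0.77. The pairs nearly coincide for PTGER4, C1orf116, STEAP1, SORD and ALDH1A3 and part for MED28, ELL2 and ACSL3.

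As context from the whole series, the deposited values summed to 49460840 to 53157388 per library, and the depth of each library is unknown. Of the luminal markers KRT8, KRT18 and KLK2 rose, and KRT8 ranged from 47493.6 to 49946.4 in NC and from 55983.6 to 69134.2 in siKIF15. Of the 7 luminal markers 3 did not pass, KLK3 among them (log2 change 0.09, adjusted p = 0.49), and none fell. Basal markers summed to 15.9 to 27.4 in NC and 257.1 to 309.8 in siKIF15. Most of the siKIF15 sum was COL17A1, with a mean of 229.7 there and 11.7 in NC. KRT14 was also higher (46.1 against 9.9), and KRT5, TP63 and KRT15 stayed at or below 5.2 in every library. The summed fibroblast, leukocyte, endothelial and neuroendocrine markers overlapped between the groups, the leukocyte gene PTPRC was at or below 3.8 everywhere, and of these lists only PDGFRA passed, with NC values of 0, 2.3 and 0 and siKIF15 values of 5.3, 7.3 and 5.2. The part of the basal markers in the changes of the targets was not tested. In RNA from many cells, a change in each cell and a change in the share of cells that express a gene cannot be told apart.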

How the data were processed

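Total RNA of the 6 libraries was made into sequencing libraries by a standard Illumina procedure, per the labels' protocols. Bowtie 0.12.2 is named in the submitters' processing notes beside mm8 and mm9, which are builds of the mouse genome, for human samples. A human build, annotation, counter and unit are not given in the sources used here. Each deposited file pairs gene symbols with a signal whose unit is not stated. Its low values (0.5 to 5.5) lie in bands, but the best single step per library made 32.4% to 93.8% of them whole multiples within 0.05 of a step, so whole reads were not recovered, depth is unknown and no count model was used.

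Values were fitted with limma 3.58.1 (R 4.3.3) with a variance trend on log2(value + 1), 3 libraries against 3, over the 16548 genes with a group mean of at least 1, and p-values were adjusted over all of them. The script was tested on simulated data. Members, gene lists, tests and alternatives were chosen with earlier results of these data known; the share of genes with a group mean of at least 100 was added after the values were seen. Every member is accounted for, with library values for called members and the highest deposited value of each role group, and KIF15 and KLK3 are named whatever their values; other listed genes are named where called, except some that are not reported here, and UGT2B15 was picked with its values in view. The 17 alternatives were 3 scalings (equal totals, median of ratios, quantile), pseudocounts of 0.1 and 10, no minimum and a minimum of 10, limma without trend and with robust variances, a replicate block, a correction for GC content and length (robust spline regression, MASS, GENCODE v29 transcripts, 97.4% of tested genes), and leaving out each library. Promoters came from a RefSeq table (GRCh38.p14).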

Additional observations from a re-analysis of the deposited data

How the results depend on the processing

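With the values scaled to equal totals, 3 members were higher and the members' median was -0.138, beside -0.064 over all genes tested. Quantile normalization gave a members' median of -0.12, beside -0.033 over all genes. A minimum mean of 10, which removes STEAP4, gave a members' median of -0.059, beside -0.002. Limma without a variance trend called 1 member higher (PTGER4) and 1 lower (ALDH1A3), and 760 genes higher and 310 lower overall. The GC and length correction gave 9 members higher and a members' median of -0.06, beside -0.018 over all genes. It called 2200 of all genes lower. Leaving out single libraries gave 3 to 5 members higher and 1 to 9 lower, medians of -0.096 to -0.052, and 767 to 2537 genes higher and 417 to 2540 lower overall. The highest of these counts of genes and of members lower came without siKIF15 3. The cause of these shifts was not tested.

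Over the 31 members and 17 alternatives, 448 of 526 log2 changes kept their direction and their side of the threshold, 49 kept the direction and lost the call, 17 gained a call and 12 changed sign, each of a member that was not called. Signs turned for MED28 (0.075) and ABHD2 (0.068) with the GC and length correction and for NCAPD3 with equal totals, quantile normalization and that correction (-0.034, -0.002 and -0.007). Leaving out single libraries gave ranges across 0 for STEAP4 (-1.404 to 0.176), ACSL3 (-0.02 to 0.132), ABHD2 (-0.101 to 0.104), AZGP1 (-0.12 to 0.024) and NCAPD3 (-0.015 to 0.096). With the correction KLK3 gave -0.067 and KIF15 0.012.

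The titles give both groups the numbers 1 to 3, but same-numbered libraries did not deviate together over 11384 genes (correlations of 0.03, -0.14 and 0), so the number was not treated as a pairing. With a replicate block 5 members were higher and 5 lower, and 1654 and 1530 of all genes; TMPRSS2 and ELL2 did not pass (adjusted p = 0.063 and 0.057). Depth is unknown, so no counting error can be given, and values near the floor, such as those of STEAP4 and NR3C1, are the least certain.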
